A study of Mus musculus with 4 samples.

Results

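The genes described here encode the parts of antigen presentation and the products that interferons induce. They were chosen by name, with earlier results of these data known. The 38 genes form 3 lists: 11 of the class I pathway, 4 of class II and 23 interferon-induced genes. A gene was taken into account where the platform annotation gives a probeset, the array's group of probes for a transcript, with that gene as its single symbol. This held for 36 of the 38 genes, with 69 probesets, among 18193 genes in all. H2-T23 and Isg15 stand only on probesets that the annotation assigns to several genes and were not measured here.

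Hippocampal RNA came from male DBA/2J mice of 8 to 10 weeks, an inbred strain, that drank untreated water or water with fluoxetine, a serotonin reuptake blocker, for 21 days. The treated group had 18 mg/kg per day and the control group 0. RNA of the 12 animals in a group went into 2 pools, 6 mice in each, and a pool filled 1 array of the type Affymetrix Mouse Genome 430 2.0, so a group has 2 values, and the spread within a group is that between pools, not between mice. Both groups shared strain, sex and housing, and the treated mice are compared only with mice on untreated water. An intensity of 100, below which the submitters counted a transcript as not above background, was reached by 16612 to 16866 probesets on an array. All 6 hippocampal neuron markers reached it. The annotated markers of T and NK cells (5 of 6), B cells (3 of 4) and dendritic cells and neutrophils (5 of 6) stayed under 100 on all 4 arrays. So did those of perivascular macrophages (6 of 6) and blood (2 of 3, Hba-a1 and Alas2). The other blood marker, Hbb-b1, had no probeset with it as the single symbol, so these values say little of blood RNA. The 18 hybridisation spike-ins, added to every sample in fixed amount, each read higher on the fluoxetine arrays than on any control array. Their median log2 difference was 0.36, and that of the tested probesets -0.04. Array handling and treatment cannot be told apart where one followed the other, and no hybridisation order stands in the labels.

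Interferons bind receptors on the cell surface and act through JAK kinases and STAT proteins. Type I interferon acts through a complex containing STAT2 and IRF9 that binds interferon-stimulated response elements (ISRE) in promoters, and interferon gamma acts mainly at gamma-activated sites (GAS). Among the induced products are proteins that block virus entry or translation and the class I machinery, in which the proteasome cuts proteins, TAP carries the peptides into the endoplasmic reticulum and tapasin loads them on a heavy chain paired with beta-2 microglobulin. Class II molecules present peptides taken up from outside, mainly on professional antigen-presenting cells. In the healthy brain both classes are low on most cells, microglia and vessels being the best known sites of class I.

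The promoters of 6 members on which the results turn are shown, since the members differ in the interferon elements they carry. They are RefSeq sequences of build GRCm38.p6, from the strain C57BL/6J and not from DBA/2J, each running 5′ to 3′ on the gene's strand from 250 bases before the annotated start to 30 bases after it. Capitals mark the ISRE (GAAA, any 2 bases, then GAAA) and the shorter IRF core (AANNGAAA), the contact of interferon regulatory factors, on either strand, and every ISRE contains a core. B2m lies on the plus strand at chr2:122147437-122147716, H2-D1 on the plus strand at chr17:35262844-35263123, and Ifit3 on the plus strand at chr19:34583279-34583558. Ifitm3 lies on the minus strand at chr7:141010715-141010994, Gbp7 on the plus strand at chr3:142530086-142530365, and Xaf1 on the plus strand at chr11:72301379-72301658.
B2m: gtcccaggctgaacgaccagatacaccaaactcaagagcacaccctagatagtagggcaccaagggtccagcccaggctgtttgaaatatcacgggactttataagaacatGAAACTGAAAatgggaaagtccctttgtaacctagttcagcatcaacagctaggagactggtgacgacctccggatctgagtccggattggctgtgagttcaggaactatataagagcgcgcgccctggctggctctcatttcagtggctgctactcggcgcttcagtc
H2-D1: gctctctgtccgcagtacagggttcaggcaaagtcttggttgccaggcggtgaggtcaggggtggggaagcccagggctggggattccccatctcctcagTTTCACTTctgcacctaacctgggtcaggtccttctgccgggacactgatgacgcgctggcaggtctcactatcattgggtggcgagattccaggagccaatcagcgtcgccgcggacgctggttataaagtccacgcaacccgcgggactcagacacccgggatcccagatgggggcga
Ifit3: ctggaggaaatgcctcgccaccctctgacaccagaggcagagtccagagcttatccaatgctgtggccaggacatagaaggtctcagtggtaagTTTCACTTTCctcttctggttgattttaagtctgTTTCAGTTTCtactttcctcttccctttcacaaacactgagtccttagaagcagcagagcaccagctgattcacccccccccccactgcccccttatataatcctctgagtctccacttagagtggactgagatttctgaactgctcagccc
Ifitm3: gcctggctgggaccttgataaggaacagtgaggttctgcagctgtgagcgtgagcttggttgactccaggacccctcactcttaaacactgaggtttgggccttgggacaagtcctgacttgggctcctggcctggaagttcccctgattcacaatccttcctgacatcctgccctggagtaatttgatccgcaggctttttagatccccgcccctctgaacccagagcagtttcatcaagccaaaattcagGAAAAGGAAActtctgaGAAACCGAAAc
Gbp7: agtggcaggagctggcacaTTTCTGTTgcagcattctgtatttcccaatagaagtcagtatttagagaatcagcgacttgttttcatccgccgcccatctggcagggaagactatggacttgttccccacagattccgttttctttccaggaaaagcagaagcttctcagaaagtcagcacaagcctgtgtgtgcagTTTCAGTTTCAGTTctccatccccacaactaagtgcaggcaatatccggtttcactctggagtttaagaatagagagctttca
Xaf1: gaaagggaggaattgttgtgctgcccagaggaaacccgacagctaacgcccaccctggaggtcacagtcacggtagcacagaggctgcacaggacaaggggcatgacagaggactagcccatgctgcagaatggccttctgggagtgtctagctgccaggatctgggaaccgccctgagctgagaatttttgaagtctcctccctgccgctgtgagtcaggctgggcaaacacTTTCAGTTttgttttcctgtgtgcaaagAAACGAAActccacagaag

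B2m has 1 ISRE, from 139 to 130 bases before the start. Ifit3 has 2, at 156 to 147 and 122 to 113 bases before it, both on the opposite strand. In Ifitm3 both ISREs lie just after the start, at bases 3 to 12 and 20 to 29, with a GAS (TTCNNNGAA) at 14 to 22 that overlaps the second. Gbp7 has an ISRE at 53 to 44 bases before the start and 2 GAS matches further upstream. H2-D1 and Xaf1 hold no ISRE in this window and 1 and 2 IRF cores. Of the 38 members, 31 had such a window, and 13 of these (41.9%) held an ISRE within the full 300 bases, against 3.44% of all 32851 promoter windows and 3.99% of all 27025 genes. By list it was 2 of 9 class I genes, 0 of 2 class II genes and 11 of 20 interferon-induced genes. The IRF core stood in 20 of the 31 (23.9% of all windows and 26.7% of all genes). The GAS stood in 7 (8.3% of all windows and 9.55% of all genes). A match is a string of letters and not a measured binding site. No window was in the table for Tap2, Cd1d1, Cd74, H2-Ab1, Usp18, Rtp4 and Ifi27.

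**Figure D1:**
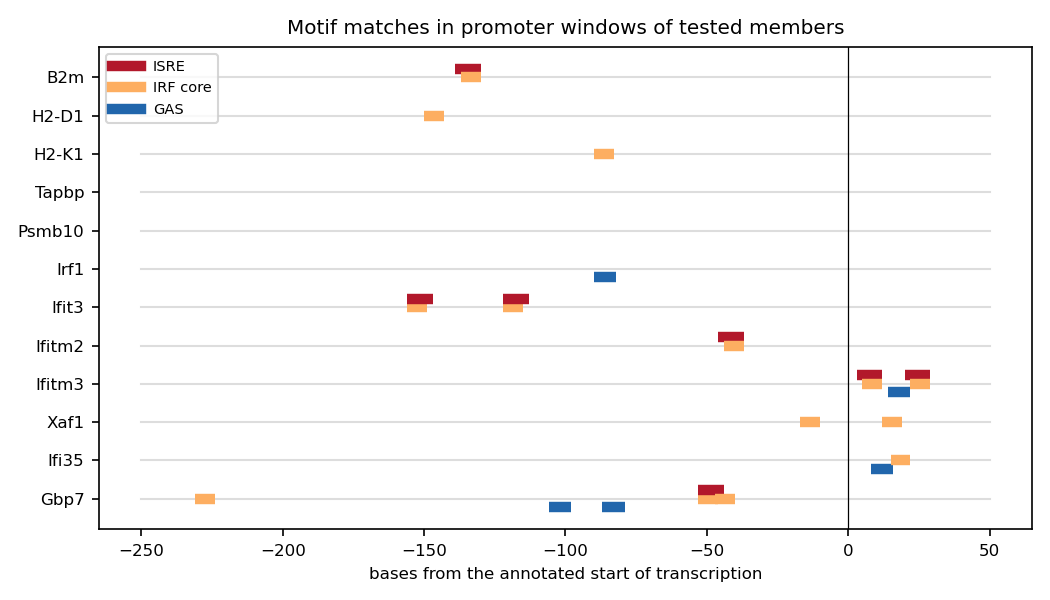
Matches of 3 motifs (rows: the 12 tested members with a promoter window) by distance in bases from the annotated start of transcription, given for each gene's first window. Red bars are ISREs, orange bars IRF cores and blue bars GAS matches; Ifit3 and Ifitm3 carry 2 ISREs each, and Tapbp and Psmb10 none of the 3 motifs.

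Transcripts of the class I complex were at higher values in both fluoxetine pools, no class II gene was bright enough to be tested, and 7 of the 8 tested interferon-induced genes were at higher values in both fluoxetine pools, 4 of them with a wide gap between these pools. The eighth, Irf1, overlapped the controls. Over all genes tested, 23.6% had both fluoxetine values above both control values. Ifitm2 was among the 7 by a small margin, at 130.2 in fluoxetine pool 2 against 130.0 in control pool 1. A gene was tested by limma, a linear model that shares information on spread across probesets, if a probeset reached 100 in at least 2 of the 4 arrays. Of the 69 probesets 21 were tested, standing for 14 genes: 6 class I, 0 class II and 8 interferon-induced. At a Benjamini-Hochberg adjusted p under 0.05 over all 16938 tested probesets, 2 of the 21 rose, 1 for H2-D1 and 1 for Cd1d1, and 0 fell. Over all tested probesets 1.03% rose and 0.685% fell. At each gene's brightest tested probeset 1 of the 14 genes, Cd1d1, rose, against 1.31% of the 9030 genes tested. All 21 probesets had a log2 fold change above 0, and in 18 of them both fluoxetine values exceeded both control values, as in 21.9% of all tested probesets. These counts, and the list medians below, are no support for a shift of the lists, which were chosen with earlier results of these data known. Besides, Cd1d1, Ifi35 and Gbp7 entered the test only through their fluoxetine values. With any 1 of the 4 arrays left out, and with the pool number as a block, 0 of the 21 passed.

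**Figure D2:**
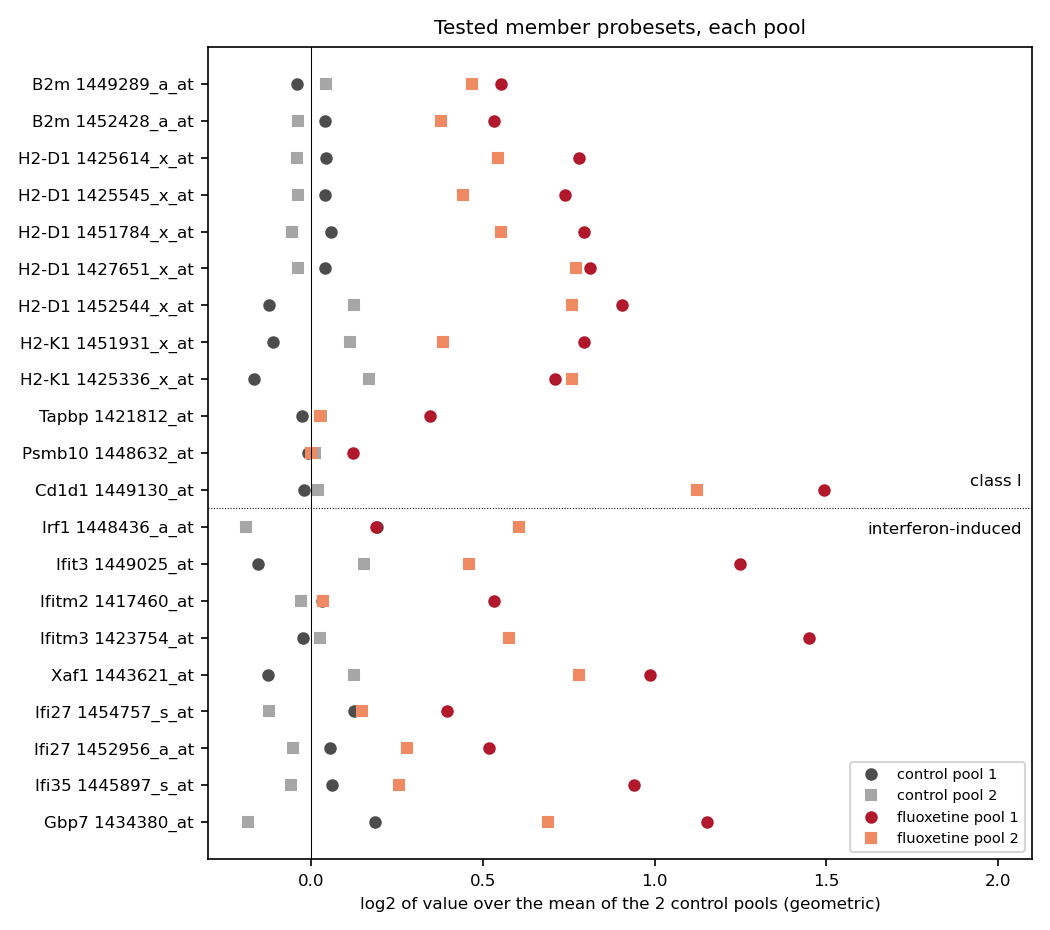
Log2 of each pool's value over the geometric mean of both control pools, for the 21 tested probesets; circles are pool 1 and squares pool 2, grey control and red or orange fluoxetine. The H2-D1 and B2m rows have both fluoxetine pools to the right of both controls, whereas Ifit3, Ifitm3, Ifitm2 and Ifi35 have fluoxetine pool 1 far to the right of fluoxetine pool 2.

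B2m encodes beta-2 microglobulin, the invariant light chain of all class I molecules. Its brighter probeset read 2769.7 and 2936 in control pools 1 and 2 and 4178 and 3946 in fluoxetine pools 1 and 2. The groups were far apart next to the gap between pools of a group, with a log2 fold change of 0.51 ± 0.07 (SE, with 2 pools in each group), which missed the threshold (limma adjusted p = 0.0581). The other B2m probeset gave 997 and 945 against 1403 and 1262, a log2 difference of 0.46 (adjusted p = 0.0798 by limma).

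H2-D1 encodes a classical heavy chain, the part that holds the peptide. The probeset that passed read 230.4 and 218 in the controls and 393 and 383 in the fluoxetine pools, and rose by log2 0.79 ± 0.07 (limma adjusted p = 0.0341, n = 2 pools per group). The 2 fluoxetine values lay within log2 0.04 of each other. The other 4 tested H2-D1 probesets were higher too in both fluoxetine pools, with log2 fold changes of 0.59 to 0.83 and limma adjusted p from 0.0502 to 0.0883. The brightest of them read 397 and 375 against 662 and 562 (log2 0.66 ± 0.10, limma adjusted p = 0.0636). Its remaining 4 probesets stayed under 100 on all arrays.

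H2-K1 encodes the other classical heavy chain. The dimmer of its tested probesets read 100.0 and 126 in the controls and 184 and 189.8 in the fluoxetine pools (log2 0.73 ± 0.13, limma adjusted p = 0.0711). The brighter one gave 181 and 211 against 339 and 255, so fluoxetine pool 2 lay nearer to the controls there (log2 0.59 ± 0.16, adjusted p = 0.143 by limma). All tested H2-D1 and H2-K1 probesets have names ending in _x_at, which marks probes that can match related transcripts, so the values of these near-identical heavy chain genes are uncertain as to the gene. The class I genes also differ between mouse strains, and DBA/2J carries another haplotype than the reference strain. The effect of this on the levels was not tested.

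Of the machinery around the complex 2 of 6 genes could be tested, and neither passed. Tapbp, the loading factor tapasin, read 264 and 274 in the controls and 342 and 274 in the fluoxetine pools (log2 0.19 ± 0.12, limma adjusted p = 0.428), so that only fluoxetine pool 1 stood out. Psmb10, a catalytic subunit of the immunoproteasome, read 424 and 429.9 against 464 and 427 (log2 0.06 ± 0.08, adjusted p = 0.671 by limma), and its groups overlapped. The peptide transporter genes Tap1 and Tap2 and the other immunoproteasome genes, Psmb8 and Psmb9, stayed under 100 on every array with all 8 of their probesets. Nothing can be said of their change.

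Cd1d1 encodes the CD1d molecule, which pairs with beta-2 microglobulin and presents lipids to natural killer T cells. It read 55.0 and 56.6 in control RNA, both under the minimum, and 157 and 122 in the fluoxetine pools. The fluoxetine mean was at least 1.38-fold above a control level set at 100, with a fitted log2 fold change of 1.31 ± 0.14 that passed (limma adjusted p = 0.0380). With values under 100 set to 100 the log2 difference was 0.47 and did not pass (limma adjusted p = 0.147, with 0.0202 to 0.191 over its 13 alternatives). A second, dimmer Cd1d1 probeset read 12.4 and 11.8 in the controls against 79.9 and 66.4, all under 100 and not tested.

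At their brightest probesets the 6 tested class I genes had a median log2 fold change of 0.55, from 0.06 to 1.31, against -0.03 over all genes tested, and in 4 of the 6 both fluoxetine values lay above both controls, as in 23.6% of all genes. These values include Cd1d1, which entered the test only through its fluoxetine values, and the 5 genes with 100 on all 4 arrays had a median of 0.51. The median of the 6 was 0.43 without fluoxetine pool 1. Dropping probesets that can match several transcripts left 3 genes, Tapbp, Psmb10 and Cd1d1, with a median of 0.19. That setting takes out B2m, H2-D1 and H2-K1 altogether, so 0.19 and 0.55 are medians of different genes. The microglia list, 11 annotated markers, had a summed intensity of 4618 and 4536 in control RNA and 7372 and 7191 in fluoxetine RNA. Of its 9 tested genes 4 rose and 0 fell, with 2 of the 11, Itgam and Tmem119, under 100 throughout. The endothelial and mural list, 10 markers, summed to 3699 and 3654 in the controls and 5097 and 5039.7 in the fluoxetine pools, with 2 of 8 tested genes higher and 0 lower by limma. The astrocyte list, 6 markers, summed to 47985 and 48783 in the controls and 57896 and 60335 in the fluoxetine pools, and 2 of its 6 tested genes rose and 0 fell. These were Gfap, the intermediate filament of astrocytes (log2 2.78 ± 0.14, limma adjusted p = 0.0172), and Aqp4, their water channel (log2 1.07 ± 0.08, limma adjusted p = 0.0262). At the brightest probeset of the other astrocyte markers, Gja1 was at log2 0.27, Aldh1l1 at 0.21, Slc1a2 at 0.11 and Slc1a3 at -0.06. None of these passed. A dimmer Slc1a2 probeset did, at 351 and 298 in the controls and 536 and 557 in the fluoxetine pools (log2 0.76 ± 0.10, limma adjusted p = 0.0494). Another Slc1a2 probeset was at log2 0.0016. The hippocampal neuron list, 6 markers, summed to 28575 and 27278 in the controls and 24821 and 24826 in the fluoxetine pools. At the brightest probeset 0 of its 6 tested genes passed, with Calb1 at log2 -0.45 (limma adjusted p = 0.0771). A dimmer Calb1 probeset did pass, at 384 and 344 in the controls and 145 and 183 in the fluoxetine pools. It fell by log2 -1.16 ± 0.14 (limma adjusted p = 0.0436). Over all genes tested 1.31% rose and 0.554% fell. The part of these cell types in the class I values was not tested, and in pooled tissue RNA more cells of a type and more RNA per cell cannot be told apart.

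**Figure D3:**
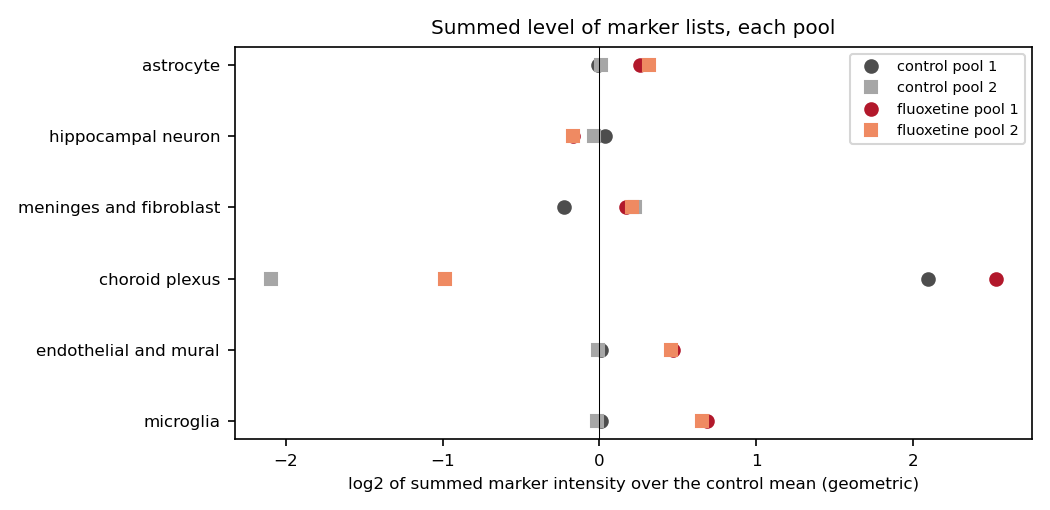
Log2 of the summed intensity of each marker list over the geometric mean of both control pools, for the lists with a tested member; circles are pool 1 and squares pool 2. Microglia, astrocyte, and endothelial and mural sums are higher in both fluoxetine pools than in both controls, and the hippocampal neuron sum is lower. The choroid plexus sum follows the pool number, with pool 1 above pool 2 in both groups.

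Class II genes gave 0 testable probesets of 9. Cd74, the invariant chain that guides class II molecules to the endosome, read between 13.6 and 18.3 on the 4 arrays. H2-Eb1 stayed under 5 and the 4 probesets of H2-Aa, the alpha chain of I-A, under 8. One probeset of H2-Ab1, the I-A beta chain, came nearest to the minimum, with 46.6 and 31.3 in the controls and 101 and 93.6 in the fluoxetine pools. Both fluoxetine values lay above both controls, but only 1 of the 4 arrays reached 100, so no fold is given.

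**Figure D4:**
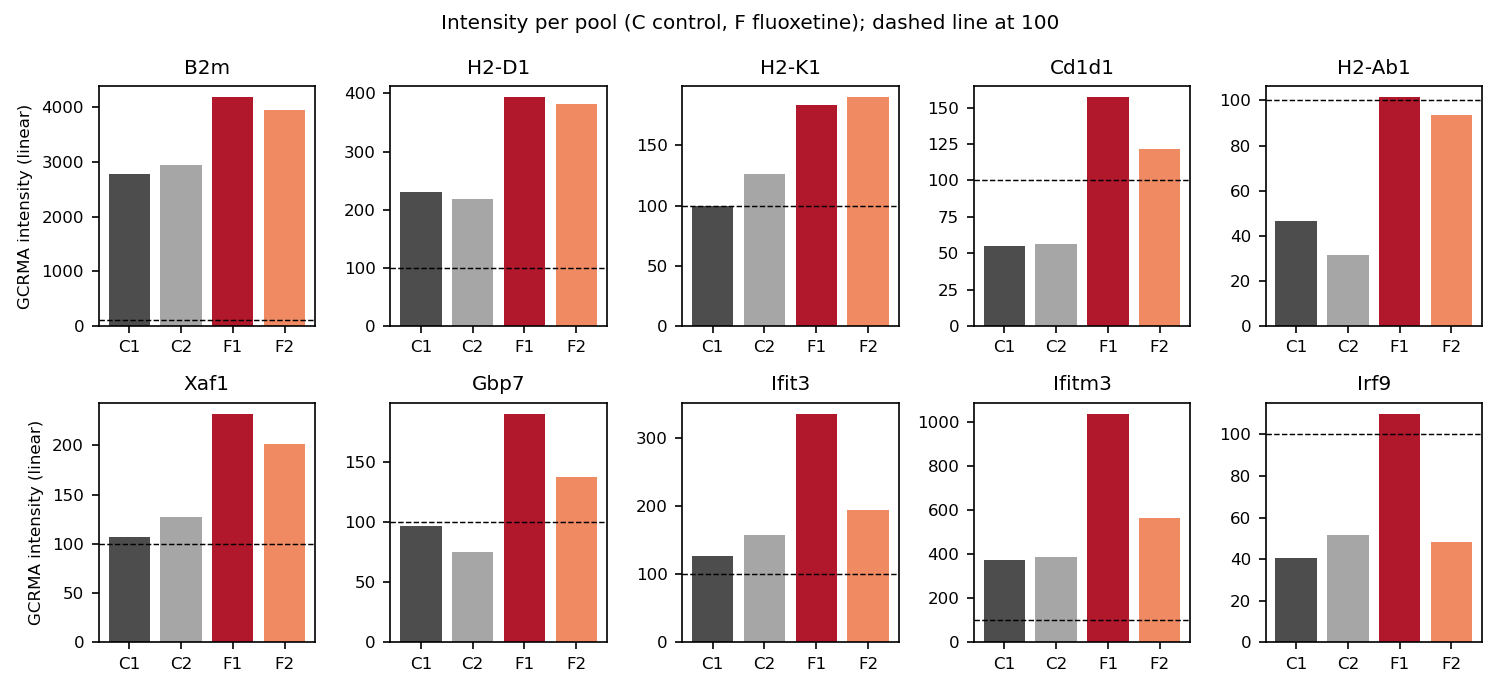
Linear intensity in each pool (C1 and C2 control, F1 and F2 fluoxetine) for 1 probeset each of 10 members, with the minimum of 100 dashed. B2m, H2-D1 and H2-K1 have 2 fluoxetine bars of similar height at the probesets shown. Pool 1 is somewhat higher for Cd1d1 (157 and 122) and Xaf1 (232 and 201), and stands apart for Ifitm3, Ifit3 and Irf9. The brightest probesets of H2-D1 (662 and 562 in fluoxetine pools 1 and 2) and H2-K1 (339 and 255) are not shown.

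Among the regulators of the interferon response only Irf1, a transcription factor induced mainly by interferon gamma, was tested. It read 139.9 and 107 in the controls and 139.6 and 186 in the fluoxetine pools, with overlapping groups (log2 0.40 ± 0.19, limma adjusted p = 0.308). Irf9, the DNA-binding part of the type I complex, read 40.8 and 51.5 in the controls, 109.8 in fluoxetine pool 1 and 48.2 in fluoxetine pool 2. Stat2, its partner, stayed under 100 on all arrays at 48.6 and 46.2 against 64.5 and 38.6, and Irf7, which amplifies the type I response, was under 7 on every array.

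Xaf1 encodes an interferon-induced promoter of cell death. It read 107 and 128 in the controls and 232 and 201 in the fluoxetine pools (log2 0.88 ± 0.12, limma adjusted p = 0.0531). Both fluoxetine values were well above both controls, and 6 of its 15 alternatives passed, the adjusted p by limma running from 0.0292 to 0.229. Gbp7, a guanylate-binding protein induced by interferon gamma, read 96.9 and 74.9 in the controls and 189.6 and 137 in the fluoxetine pools. Its fluoxetine mean was at least 1.61-fold above 100, and it did not pass (log2 0.92 ± 0.20, adjusted p = 0.101 by limma).

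Ifitm3 and Ifit3 showed a wide gap between the fluoxetine pools. Ifitm3, a membrane protein that hinders virus entry, read 372 and 386 in the controls, 1035 in fluoxetine pool 1 and 565 in fluoxetine pool 2 (log2 1.01 ± 0.29, limma adjusted p = 0.148). Its value in pool 1 was log2 1.45 above the control mean and in pool 2 0.58. Ifit3, a cytoplasmic antiviral protein, read 127 and 157 in the controls and 336 and 194 in fluoxetine pools 1 and 2 (log2 0.85 ± 0.28, limma adjusted p = 0.180). Over the control mean these were log2 1.25 and 0.46. For both genes the groups did not overlap, and the difference did not pass.

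Ifitm2, a close relative of Ifitm3, read 130.0 and 125 in the controls and 184 and 130.2 in the fluoxetine pools, so pool 2 lay just above the higher control (log2 0.28 ± 0.18, limma adjusted p = 0.400). Ifi35, an interferon-induced leucine zipper protein, read 94.9 and 87.4 against 175 and 109, at least 1.38-fold above 100 without passing (log2 0.60 ± 0.23, adjusted p = 0.229 by limma). Ifi27, a small mitochondrial and membrane protein, had 2 tested probesets at log2 0.27 and 0.40, with limma adjusted p of 0.299 and 0.133. The brighter one read 1052 and 885 in the controls and 1269.9 and 1069 in the fluoxetine pools.

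Of the 8 tested interferon-induced genes 4 (Ifi35, Ifit3, Ifitm2 and Ifitm3) were above log2 0.5 in fluoxetine pool 1 over pool 2, and 0 of the 6 class I genes were. Over all genes tested it was 1.18%. By any margin, fluoxetine pool 1 was above pool 2 in 6 of the 6 class I genes and 7 of the 8 interferon-induced genes. Over all genes tested this held for 4885 of 9030. The median gap was log2 0.28 for class I, 0.48 for interferon-induced genes and 0.01 over all genes. Among class I genes it was widest for H2-K1, at log2 0.41. In the control pools 0 of the 14 members were above log2 0.5 in pool 1 over pool 2, and 64 of all 9030 genes were. At so low a share, 0 of 14 says little of the members. The median log2 fold change over the 8 interferon-induced genes was 0.73, from 0.27 to 1.01, and 0 passed at the brightest probeset. At an unadjusted limma p under 0.05, 4 were higher, as were 9.37% of all genes tested. Gbp7, one of the 4, and Ifi35 entered the test only through their fluoxetine values, and the 6 genes with 100 on all 4 arrays had a median of 0.63. The median of the 8 was 0.52 without fluoxetine pool 1 and 0.96 without fluoxetine pool 2. Leaving out fluoxetine pool 1 moved the log2 fold change of 9 of the 14 tested members by over 1.5 times: H2-K1, Ifi27, Ifi35, Ifit3, Ifitm2, Ifitm3, Irf1, Psmb10 and Tapbp. Leaving out fluoxetine pool 2 did so for 5, control pool 2 for 2 (Ifi27 and Irf1) and control pool 1 for 0. A log2 fold change near 0, as for Psmb10 (0.06), crosses this bound with little movement. The counts were not made over all genes tested, so whether they are particular to the members was not tested. Of the 4 genes with the gap, 3 held an ISRE in their promoter window (not Ifi35), and of the 8 other tested members with a window 2 did, B2m and Gbp7.

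**Figure D5:**
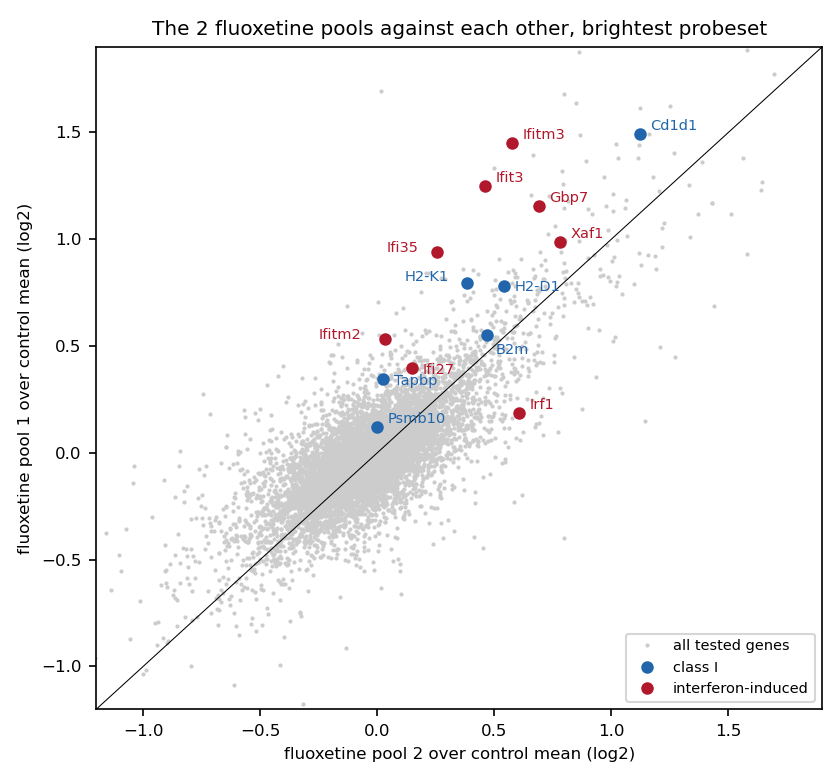
Log2 of fluoxetine pool 1 (vertical) and of fluoxetine pool 2 (horizontal) over the control mean, at each gene's brightest tested probeset; grey points are all 9030 tested genes, blue class I and red interferon-induced members, and the line marks equal values (a few grey points lie beyond the axes). Ifitm3, Ifit3, Ifi35 and Ifitm2 lie furthest above the line among the members, B2m and Psmb10 close to it, and Irf1 below it.

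Among the member probesets too dim to be tested, 4 reached the minimum on an array. They belong to Irf9, Ifit2, Lgals3bp and H2-Ab1, each reached 100 on exactly 1 array, and for all 4 that array was fluoxetine pool 1. The value in fluoxetine pool 2 was close to that in pool 1 for H2-Ab1 and near the controls for Irf9 and Lgals3bp. Among all probesets of this kind it was fluoxetine pool 1 in 26.3% of 539. Ifit2, a relative of Ifit3, read 86.6 and 76.2 in the controls, 132 in fluoxetine pool 1 and 96.8 in fluoxetine pool 2. Lgals3bp, a secreted galectin-binding protein, read 37.3 and 35.1 in the controls and 101 and 43.5 in the fluoxetine pools. The remaining 44 member probesets stayed under 100 on every array. Among them were Oasl2 (8.32 and 10.1 in the controls, 39.5 and 9.96 in fluoxetine pools 1 and 2), Bst2, Gbp2, Gbp3, Rtp4 and Trim25. Ifit1, Ifih1 and Usp18 were under 10 on all arrays. Values that far under the minimum have no order here.

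The choroid plexus markers also differed by pool number, with a summed intensity of 38021 and 2082 in control pools 1 and 2 and of 51314 and 4504 in fluoxetine pools 1 and 2. Transthyretin made up nearly all of this sum, and 4 of the 6 markers stayed under 100. Of the 4 genes with the gap between fluoxetine pools, Ifitm3 (372 and 386) and Ifit3 (127 and 157) were lower in control pool 1 than in control pool 2, and Ifitm2 (130.0 and 125) and Ifi35 (94.9 and 87.4) were higher. The part of choroid plexus RNA in the pool gap was not tested.

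Of 74 further genes of the pathway 26 were tested, and 2 rose and 0 fell at the brightest probeset (1.31% and 0.554% over all genes). The median log2 fold change of the 26 was 0.03, against -0.03 over all genes tested. Both fluoxetine values lay above both controls in 11 of the 26 and in 2132 of all 9030 genes. They lay below both controls in 6 of the 26 and in 2953 of all genes. The 2 that rose belong to antigen processing in the endosome and lysosome. Ctss, the protease cathepsin S that trims the invariant chain, read 3184 and 2999 in the controls and 4814 and 4641 in the fluoxetine pools (log2 0.61 ± 0.07, limma adjusted p = 0.0427). Ifi30, a lysosomal thiol reductase, read 63.5 and 71.5 against 117 and 119.6, at least 1.18-fold above 100 (log2 0.81 ± 0.09, adjusted p = 0.0380 by limma). In both genes the fluoxetine pools were close together. Ifi30 entered the test only through its fluoxetine values, and with values under 100 set to 100 it was at log2 0.24 and did not pass (limma adjusted p = 0.128), whereas Ctss did (limma adjusted p = 0.0426).

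Of 9 tested receptor and signalling genes 0 passed by limma at the brightest probeset. At an unadjusted limma p under 0.05 there was 1, Tyk2, a JAK kinase of the type I receptor (log2 -0.30 ± 0.08, limma adjusted p = 0.147). It read 114 and 128 in the controls and 97.2 and 99.9 in the fluoxetine pools. Tyk2 thus entered the test only through its control values, whose mean was at least 1.21-fold above 100. Ifnar2, a chain of that receptor, was at log2 0.28 (limma adjusted p = 0.285), and Jak1 at 0.15. Rfx5, a factor of class I and II promoters, was at log2 -0.24 (limma adjusted p = 0.155) and Lgmn, a lysosomal protease, at 0.27 (limma adjusted p = 0.230). The constitutive proteasome subunits Psmb5, Psmb6 and Psmb7 lay between -0.05 and 0.06, and Cmpk2 was at -0.19. Of 35 other interferon-induced genes 4 were tested, at log2 -0.19 to -0.05 at the brightest probeset. There 0 passed by limma, with 0 at an unadjusted limma p under 0.05. Most classical targets, Mx1, Oas1a, Oas2, Rsad2 and Cxcl10 among them, stayed under 100 on all arrays, which leaves their change undetermined.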

How the data were processed

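RNA of 4 pools was measured on Affymetrix Mouse Genome 430 2.0 arrays, and the sample titles give each pool's group and number. The authors ran GCRMA in the ArrayAssist software and deposited linear intensities, per the labels' design text, which names no version. GCRMA corrects background by probe sequence and normalizes between arrays, and dim probesets are pulled towards a common floor. The number of arrays limits the precision.

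Values were taken to log2 without a pseudocount. The 64 Affymetrix control probesets were left out. Probesets at 100 or more on at least 2 of the 4 arrays were tested (16938 of 45101). Names came from the platform annotation, with 34958 probesets of 1 symbol, 932 of several and 9211 of none. Gene numbers of 34754 matched the RefSeq gene table, and 0 symbols changed. The comparison used limma (version 3.58.1, under R 4.3.3) with lmFit and eBayes, two-sided and without covariates, adjusted over all tested probesets. The procedure was tested on simulated data. An exact permutation test of 2 against 2 pools cannot give a p under 0.333. A gene stands for its tested probeset of highest mean log2 value where a list is counted. A fold is written "at least" where all arrays of a group were under 100, as the other group's geometric mean over 100. Marker sums take each marker's brightest probeset. Motifs were searched on both strands in RefSeq windows of 300 bases.

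The members and lists were chosen with earlier results of these data known. Members were given in full if a probeset passed, if they were among the 3 largest absolute changes of a list, if probesets differed in sign, or if they define a list. Of other pathway genes those that passed and up to 6 more were named. Further members and pathway genes were chosen after their values were seen. The alternatives tried were a floor of 100, a pseudocount of 32, median centring, quantile normalization, 3 other filters, each array left out, a block for the pool number, array weights, trend and robust settings of eBayes, no probesets that can match several transcripts, the median of a gene's probesets, and the submitters' rule of at least 2-fold.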

Additional observations from a re-analysis of the deposited data

How the results depend on the processing

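The log2 fold change of every tested member probeset stayed above 0 under each alternative, except Psmb10, which ran from -0.00075 without fluoxetine pool 1 to 0.12 without fluoxetine pool 2. What changed was which probesets passed. Of all probesets 291 passed, and 507 did with a minimum of 200, 532 with trend and robust settings and 391 with quantile normalization. It was 430 with median centring, 345 with a pseudocount and 263 with a floor of 100. Without probesets that can match several transcripts 193 passed, by the 2-fold rule 134 and with no intensity filter 0. Of the member probesets 2 passed, and 6 with a minimum of 200, 6 with quantile normalization, 7 with median centring, 5 with a pseudocount, 8 with trend and robust settings, 1 with a floor of 100, 1 without probesets that can match several transcripts, and 0 with no filter. Among class I genes 1 passed, and 2 with a minimum of 200, quantile normalization or a pseudocount, 3 with median centring or trend and robust settings, and 0 with no filter, a floor, or 100 required on all 4 arrays. Among interferon-induced genes 0 passed, and 1 with 100 on all 4 arrays, a minimum of 200, quantile normalization, median centring, a pseudocount, trend and robust settings, or the 2-fold rule. Among other pathway genes 2 passed, and 1 with 100 on all 4 arrays, a minimum of 200 or a floor, and 0 with no filter or the 2-fold rule. With any array left out, 0 probesets of the table, the members, the class I or the other pathway genes passed (2657 to 3515 of all probesets at an unadjusted limma p under 0.05).

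The class I median of 0.55 was 0.37 with no filter and 0.43 to 0.67 with an array left out. Without probesets that can match several transcripts it was 0.19, over Tapbp, Psmb10 and Cd1d1 only. The other pathway median of 0.026 was 0.061 with a minimum of 200, 0.050 with quantile normalization, 0.054 with median centring, 0.022 to 0.048 with an array left out, and -0.030 without probesets that can match several transcripts. The interferon-induced median moved by less than the spread between pools under each alternative. With the pool number as a block 9 probesets passed in all, 0 of the members, 0 class I and 0 other pathway genes. Same-numbered pools deviated together only weakly (r = 0.14 across probesets, which are not independent), and nothing in the labels pairs them. The cause of these changes was not tested beyond the smaller number of arrays or probesets that some settings leave.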

Other observations

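Besides the single-gene probesets, 12 probesets are assigned by the annotation to several class I genes at once. None of the 12 was bright enough to be tested, 2 reached 100 on an array, and the highest value was 106. No gene is named from them.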
